A study of Mus musculus with 2 samples.

Results

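DNA methylation was examined at 37 genes of transcription factors, namely 15 Sox genes, 11 T-box genes and 11 proneural or Olig genes of the basic helix-loop-helix class. They were taken by name from 21627 protein-coding genes on the autosomes and the X chromosome, and all of them had a measurable promoter. The cells were the epiblast, the layer of the early embryo that forms the fetus, of wild-type female (XX) C57Bl6/J mouse embryos at embryonic day 6.5, dissected by hand away from extraembryonic tissue after natural mating. Sex was typed by PCR, and the embryos had not been cultured. The labels list 2 samples in this single group, and the deposited bisulfite counts form 1 table with no column per sample. Whether it pools both samples is not stated. No value below therefore has a replicate error, and no p-value was computed. Bisulfite sequencing reads methylated cytosine as C and unmethylated cytosine as T. A level is the methylated share of all read counts in a region, in percent. Parentheses give exact Clopper-Pearson 95% intervals. These intervals cover counting error only, and they can be too narrow because a read spanning several CpGs is counted at each. The counts come from many cells, so a mixture of fully methylated and unmethylated cells and partial methylation of every cell cannot be told apart.

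Sox proteins bind DNA through an HMG box related to that of the sex-determining factor SRY. T-box proteins share the DNA-binding domain first described in Brachyury. Proneural proteins bind E-box sequences as dimers and commit progenitors to a neural fate, and the related Olig factors specify motor neurons and oligodendrocytes. Many genes of these 3 families are textbook targets of Polycomb repression in pluripotent cells: their promoters are CpG islands that stay free of DNA methylation while the gene is silent. Most of the members act in organs that form after gastrulation begins.

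Promoter sequences of the members differed in CpG content. The sequences below are the 250 bases before the start of transcription, from RefSeq (GRCm38.p6), written 5′ to 3′ on the gene's strand with each CpG in capitals. In each family the members with the lowest and the highest promoter level were chosen, among genes whose start is listed by RefSeq and whose upstream window overlaps no annotated gene.
Sox12 (chr2:152398047-152398296, minus strand): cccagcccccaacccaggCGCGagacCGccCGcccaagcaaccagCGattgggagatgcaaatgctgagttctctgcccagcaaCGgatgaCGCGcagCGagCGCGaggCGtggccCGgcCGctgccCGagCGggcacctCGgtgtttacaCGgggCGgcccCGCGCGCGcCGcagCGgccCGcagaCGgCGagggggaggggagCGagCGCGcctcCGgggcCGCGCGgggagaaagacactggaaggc
Sox15 (chr11:69654787-69655036, plus strand): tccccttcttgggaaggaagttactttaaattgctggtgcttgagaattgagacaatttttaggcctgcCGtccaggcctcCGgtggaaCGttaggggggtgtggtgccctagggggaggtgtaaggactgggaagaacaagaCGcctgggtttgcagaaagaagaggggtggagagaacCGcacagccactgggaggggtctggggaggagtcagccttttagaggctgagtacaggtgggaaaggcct
Tbx21 (chr11:97115332-97115581, minus strand): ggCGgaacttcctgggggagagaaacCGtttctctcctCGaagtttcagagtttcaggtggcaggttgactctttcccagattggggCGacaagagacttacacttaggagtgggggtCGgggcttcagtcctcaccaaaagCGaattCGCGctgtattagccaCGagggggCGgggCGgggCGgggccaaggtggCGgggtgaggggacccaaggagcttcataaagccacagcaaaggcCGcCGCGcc
Tbx19 (chr1:165160774-165161023, minus strand): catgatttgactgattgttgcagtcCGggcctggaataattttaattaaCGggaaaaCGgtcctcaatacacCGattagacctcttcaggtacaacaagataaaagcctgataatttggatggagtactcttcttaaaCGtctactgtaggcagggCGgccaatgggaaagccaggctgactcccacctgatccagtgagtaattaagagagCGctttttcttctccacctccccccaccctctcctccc
Atoh1 (chr6:64728875-64729124, plus strand): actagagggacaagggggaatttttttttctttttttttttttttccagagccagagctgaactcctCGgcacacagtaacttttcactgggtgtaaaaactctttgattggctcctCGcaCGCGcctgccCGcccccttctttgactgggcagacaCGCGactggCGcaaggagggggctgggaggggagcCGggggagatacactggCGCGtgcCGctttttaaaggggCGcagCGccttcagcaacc
Neurod6 (chr6:55681264-55681513, minus strand): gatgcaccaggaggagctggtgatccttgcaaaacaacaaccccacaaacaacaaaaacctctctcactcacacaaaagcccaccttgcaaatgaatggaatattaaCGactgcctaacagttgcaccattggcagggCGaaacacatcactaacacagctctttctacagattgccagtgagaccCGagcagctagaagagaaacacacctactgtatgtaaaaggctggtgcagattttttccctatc
The Sox12 stretch holds 35 CpGs, with 3 methylated of 508 read counts, or 0.591% (0.122% to 1.72%). The Sox15 stretch holds 5 CpGs and was at 43.9% (28.5% to 60.3%). The Tbx21 stretch holds 16 CpGs and was at 6.45% (3.14% to 11.5%). By contrast the Tbx19 stretch, with 7 CpGs, was methylated in 50 of 60 read counts, or 83.3% (71.5% to 91.7%). The Atoh1 stretch holds 14 CpGs and was at 16.0% (9.22% to 24.95%), and the Neurod6 stretch, with 3 CpGs, was at 53.3% (34.3% to 71.7%) over only 30 read counts. In each of these pairs, chosen as extremes of methylation, the sequence with fewer CpGs was the more methylated one. Other members departed from that order: the stretch of Sox30, with 23 CpGs, was at 26.8%, and that of Olig3, with 4 CpGs, was at 9.68%. The 30 members with a listed start had a median of 14.5 CpGs in these 250 bases, compared with 10 over 17273 protein-coding genes.

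Promoters were measured as the 1 kb window centered on the start. For 7 members without a listed start (Sox9, Sox10, Sox18, Tbx2, Tbx5, Tbx15 and Olig1) the gene end with more CpGs was taken as the start, a choice that favors CpG-rich windows. Most members were unmethylated there, at a rate close to that of genes in general. A promoter was called low when its whole interval lay under 20%, high when it lay over 60%, intermediate when it lay between these limits, and unresolved otherwise. Of the 37 members, 25 were low (67.6%), compared with 63.5% of 19115 measured protein-coding genes. The others were 1 intermediate, 2 high and 9 unresolved. The median of the members was 10.7%, and that of all measured genes was 8.73%. The calls divided along CpG content. All 24 members with at least 40 CpGs in the window were low, against a background of 96.5% for such CpG-rich genes. Their median of 6.81% lay above the 5.50% of CpG-rich genes. Among the 13 members with fewer CpGs, 1 was low (Olig3), where the background was 14.8%. Fewer CpGs also give fewer read counts and wider intervals, so a low call is harder to reach there. Sox6, Tbx15, Tbr1 and Neurod4, at 15.0% to 17.6%, were unresolved because their intervals passed 20%. With 1000 bp on either side Sox6, Sox10, Tbr1 and Tbx15 were low, and with 250 bp Olig3 was unresolved. The median of the 13 members was 23.5%, compared with 65.7% for all genes under 40 CpGs. These groups were not matched in CpG number, with medians of 24 CpGs for the members and 16 for all such genes. Sox10, Tbx5 and Tbx15, placed at the gene end with more CpGs, are among the 13.

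**Figure D1:**
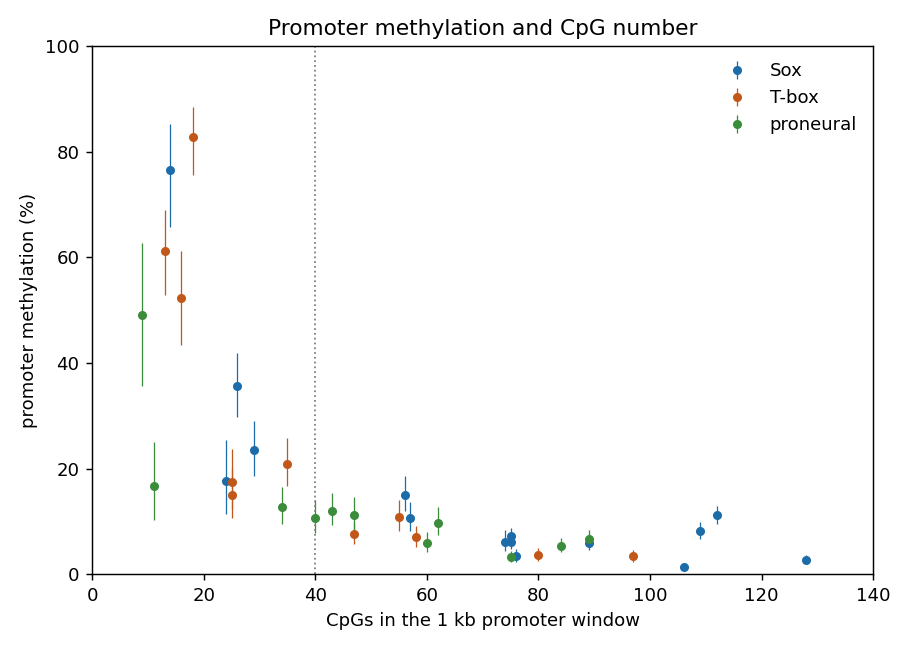
Promoter methylation in percent (vertical axis) against the number of CpGs in the 1 kb window (horizontal axis), 1 point per gene colored by family; bars are exact 95% counting intervals and the dotted line marks 40 CpGs. The 24 genes at or right of the line lie between 1.28% and 15.1%, and the high values are all to its left.

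Side by side, the Sox family had a promoter median of 8.16% (15 genes, 1.28% to 76.5%), the proneural family 10.7% (11 genes, 3.26% to 49.1%) and the T-box family 15.0% (11 genes, 3.38% to 82.8%). The ranges overlapped over most of their length. Low promoters numbered 11 of 15 Sox, 9 of 11 proneural and 5 of 11 T-box genes. CpG-rich windows numbered 11, 8 and 5 in the same order, and within them the medians were 6.13%, 8.22% and 6.96%. The T-box family thus held the fewest CpG-rich starts. The genes were also measured at their most CpG-dense 1 kb window, which need not be a promoter. There the T-box median was 4.06%, the lowest of the 3, with 6.39% for Sox and 6.71% for proneural genes. This window lay over 5 kb downstream of the start in 5 of 11 T-box, 2 of 15 Sox and 0 of 11 proneural genes. The T-box value was that of Tbx1, 8392 bp downstream. Median gene lengths were 22940 bp for T-box, 4794 bp for Sox and 2904 bp for proneural genes, so the search spanned unlike lengths.

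**Figure D2:**
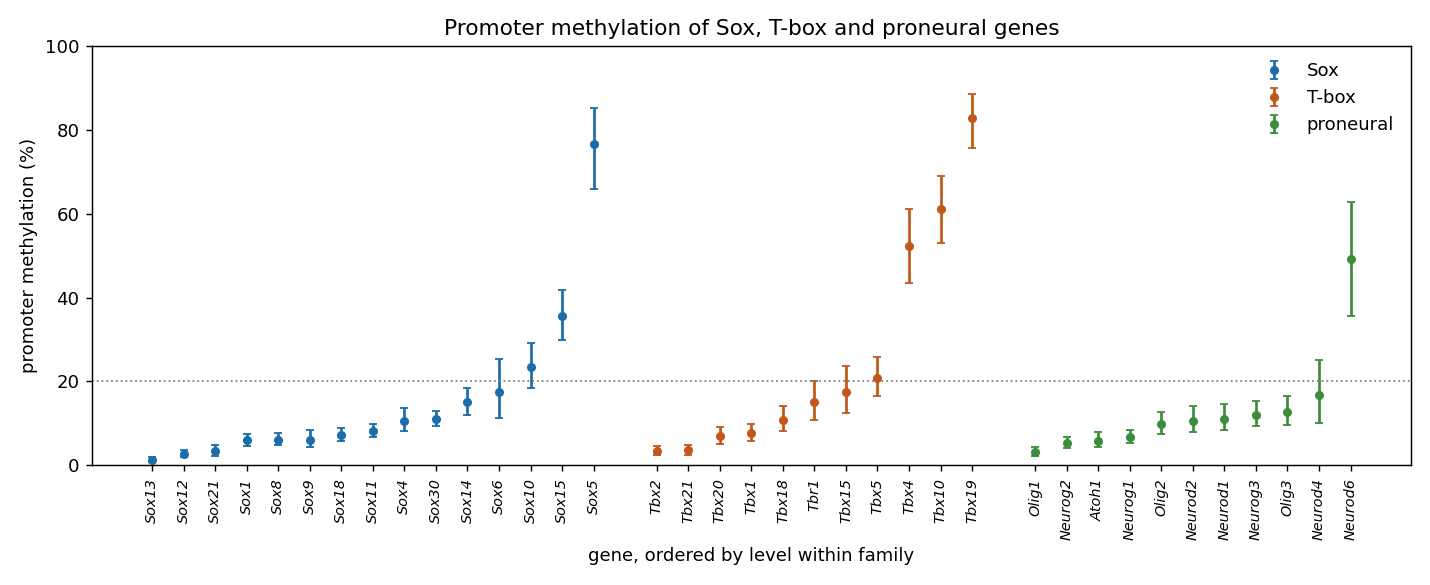
Promoter methylation in percent for each of the 37 genes, ordered by level within family; points are levels, bars are exact 95% counting intervals, and the dotted line marks 20%. Each family has a flat run of low genes and a tail that ends at Sox5 (76.5%), Tbx19 (82.8%) and Neurod6 (49.1%).

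Within the Sox family, promoters of the neural and progenitor groups were low. Sox1, a SoxB1 factor of the neural plate, was at 5.99% (4.65% to 7.57%; chromosome 8, 12395019 to 12396019). The SoxB2 genes, which counter SoxB1 factors in neurons, were at 3.37% for Sox21 (2.29% to 4.78%; chromosome 14, 118236530 to 118237530) and 15.1% for Sox14 (12.1% to 18.5%). Their intervals did not overlap, so the related genes differed beyond counting error. The SoxC genes, which act in differentiating neurons and mesenchyme, were all low. Sox12 was at 2.64% (1.89% to 3.57%; chromosome 2, 152397546 to 152398546), Sox11 at 8.16% and Sox4 at 10.6%.

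The other Sox groups were split. Among SoxD genes, Sox13 had the lowest promoter of all 37, with 16 methylated of 1250 read counts, or 1.28% (0.733% to 2.07%; chromosome 1, 133423712 to 133424712). Its relatives Sox5 and Sox6, which assist Sox9 in cartilage, were not called low. Sox5 was high at 76.5% (65.8% to 85.3%; chromosome 6, 143946606 to 143947606). Sox6 was unresolved at 17.6% (11.4% to 25.4%; chromosome 7, 116038244 to 116039244), and it was called low with 1000 bp on either side. Sox5 rests on 81 read counts, at the 13 of its 14 CpGs that had a read. Among SoxE genes, the cartilage and testis regulator Sox9 was at 6.13% and Sox8 at 6.11%, whereas the neural crest and glial regulator Sox10 was unresolved at 23.5% (18.5% to 29.1%; chromosome 15, 79163990 to 79164990). At Sox10 the level lay at 41.5% in the 500 bp upstream of the start and at 17.6% in the 500 bp downstream, and it reached 6.65% between 500 and 1000 bp downstream. Sox18, a regulator of blood and lymph vessels, was low at 7.25%. The divergent gene Sox15 was the only intermediate member, at 35.7% (29.8% to 41.9%; chromosome 11, 69654537 to 69655537), and no 500 bp window next to its start was under 20%. Sox30, which acts in spermatids, was low at 11.1% (9.43% to 13.0%) and uneven, at 37.5% upstream of the start and 4.18% downstream. The upstream end of the gene, at -1241 bp from this start, was at 71.4% (51.3% to 86.8%) over 28 read counts.

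Among T-box genes, 3 of the 5 low promoters belonged to the Tbx1 subfamily. Tbx1, a regulator of the pharyngeal arches and the outflow tract of the heart, was at 7.65% (5.75% to 9.93%). The heart regulator Tbx20 was at 6.96%, and Tbx18, which marks the epicardium and the sinus node, was at 10.9%. Tbx15, a regulator of skeleton and skin, was unresolved at 17.6% (12.4% to 23.8%; chromosome 3, 99239848 to 99240848). Tbx10, the close relative of Tbx1, was at 61.2% (53.0% to 69.0%; chromosome 19, 3992252 to 3993252) with 13 CpGs in its window, against 47 at Tbx1. The intervals of this pair of relatives were far apart.

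In the Tbx2 subfamily, Tbx2 was the lowest T-box promoter at 3.38% (2.40% to 4.60%; chromosome 11, 85832115 to 85833115). Tbx5, a regulator of forelimb and heart, was unresolved at 20.9% (16.6% to 25.8%; chromosome 5, 119796014 to 119797014). Its hindlimb relative Tbx4 was at 52.3% (43.4% to 61.1%; chromosome 11, 85896265 to 85897265). In the Tbr1 subfamily, the T helper cell regulator Tbx21 was at 3.58% (2.52% to 4.93%; chromosome 11, 97114831 to 97115831). The cortical neuron gene Tbr1 was unresolved at 15.0% (10.7% to 20.2%; chromosome 2, 61803953 to 61804953). Tbx19, which activates Pomc in the pituitary, had the highest promoter of all members, with 120 methylated of 145 read counts, or 82.8% (75.6% to 88.5%; chromosome 1, 165160273 to 165161273).

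Proneural promoters were low except at 2 NeuroD genes. The neurogenins, which start neurogenesis and, in the case of Neurog3, endocrine differentiation in the pancreas, were at 5.38% for Neurog2 (4.18% to 6.79%; chromosome 3, 127632636 to 127633636), 6.67% for Neurog1 and 12.1% for Neurog3. Atoh1, the regulator of hair cells and cerebellar granule cells, was at 5.90%. Among the Olig genes, Olig1 was the lowest of the family at 3.26% (2.32% to 4.45%; chromosome 16, 91269269 to 91270269), followed by Olig2 at 9.77% and Olig3 at 12.7%. The NeuroD genes, which act in differentiating neurons, were the most varied group. Neurod2 was at 10.7% and Neurod1 at 11.2%. Neurod4 was unresolved at 16.7% (10.2% to 25.1%; chromosome 10, 130279754 to 130280754), with 11 CpGs. Neurod6, with 9 CpGs and 57 read counts, was at 49.1% (35.6% to 62.7%; chromosome 6, 55680763 to 55681763). The depth at Neurod4 and Neurod6 leaves intervals more than 10 points wide.

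Several of the members that were not called low had an unmethylated CpG-dense window elsewhere. RefSeq lists a start of Sox5 inside the gene, and the upstream end of the gene, at -835181 bp from that start, held 72 CpGs at 11.1% (8.60% to 13.9%). At Tbx4, the window 1500 bp upstream of the start held 47 CpGs at 10.5% (8.21% to 13.2%), and the upstream end of the gene was at 21.2% (17.9% to 24.9%). Tbr1 held 134 CpGs at 1.90% (1.36% to 2.59%) in a window 7600 bp downstream of its start. The upstream end of Tbr1, at -1590 bp, was at 33.1% (25.6% to 41.3%). Tbx15 was at 3.89% at 13500 bp downstream, Tbx5 at 9.18% at 7200 bp downstream and Sox10 at 10.3% at 677 bp downstream. Sox6 has 6 listed starts. The most upstream one was used here, and the next, 7697 bp downstream, was at 35.3% (29.6% to 41.3%). Near the Sox6 start, a window 1500 to 2000 bp upstream was at 4.17%. Sox6 also had low windows from 4500 to 7000 bp downstream, the lowest of them at 3.93% over 178 read counts. The densest windows of Tbx10 and Tbx19, with 22 and 32 CpGs, were at 77.6% (71.7% to 82.9%) and 74.9% (68.5% to 80.6%). Within 10 kb of the start, Tbx10 had 2 low windows of 40 measured, both downstream, and Tbx19 had 0 of 37. The densest windows of Sox15 (30.7%, 42 CpGs) and Neurod6 (61.3%, 23 CpGs) were not low either.

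The length of unmethylated DNA around the start was greater at many members than at genes in general. The low region was measured in 500 bp windows laid outward from the start, as far as every window was under 20%. It had a median of 2000 bp over the 37 members, 1000 bp over all protein-coding genes and 1500 bp over CpG-rich ones. It reached at least 3 kb in 16 of 37 members (43.2%), against a background of 5.13% of all genes and 8.83% of CpG-rich genes. At least 5 kb was reached by 3 members, all Sox genes, where the background was 0.818%. By family, 7 of 15 Sox, 6 of 11 proneural and 3 of 11 T-box genes had at least 3 kb, and the medians were 2000, 3000 and 2000 bp. Long low regions were not particular to the members. At least 3 kb was reached by 9 of 25 other genes of these families (36%). The same held for 6 of 22 Notch pathway and Id genes (27.3%) and 2 of 29 differentiation genes (6.9%). These lists are read below. All of these values are descriptions of named genes, and no test of the difference from other genes was made.

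The longest low region of the Sox family was that of Sox9, with 6000 bp, 307 CpGs and a level of 6.97% (chromosome 11, 112779710 to 112785709). Sox11 had 5500 bp with 388 CpGs at 6.57% (chromosome 12, 27338219 to 27343718), and Sox1 had 5000 bp with 361 CpGs at 4.48%. Each of these regions extended farther downstream than upstream. With windows under 10% they had 3500 bp (Sox9), 2500 bp (Sox11) and 3500 bp (Sox1), and Sox11 also had 2500 bp from minus strand reads. In the proneural family Atoh1, Neurog3 and Olig2 had 4500 bp each, with 176, 126 and 266 CpGs. These lengths depended on the setting. Neurog3 had 500 bp from plus strand reads alone and 2500 bp from minus strand reads, and Olig2 had 1500 and 3000 bp. With windows under 10%, Neurog3 and Olig2 had 500 bp each and Atoh1 had 1000 bp. In the T-box family Tbr1 had 3500 bp, and Tbx2 and Tbx18 had 3000 bp. The Tbr1 length, and its place as the longest, depended on the setting: it had no low region with 250 bp windows or with windows under 10%, 1000 bp from minus strand reads, and 10000 bp with windows under 30%. At the short end, 6 members had no low region: Sox5, Sox15, Tbx4, Tbx10, Tbx19 and Neurod6. Neurod4 had 500 bp. Among the 31 members with a low region it was longer downstream in 24, longer upstream in 2 (Sox8 and Tbx1) and equal in 5, where the background for longer downstream was 52.5%. Without the 7 members placed by CpG number it was longer downstream in 18, longer upstream in 2 and equal in 4.

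**Figure D3:**
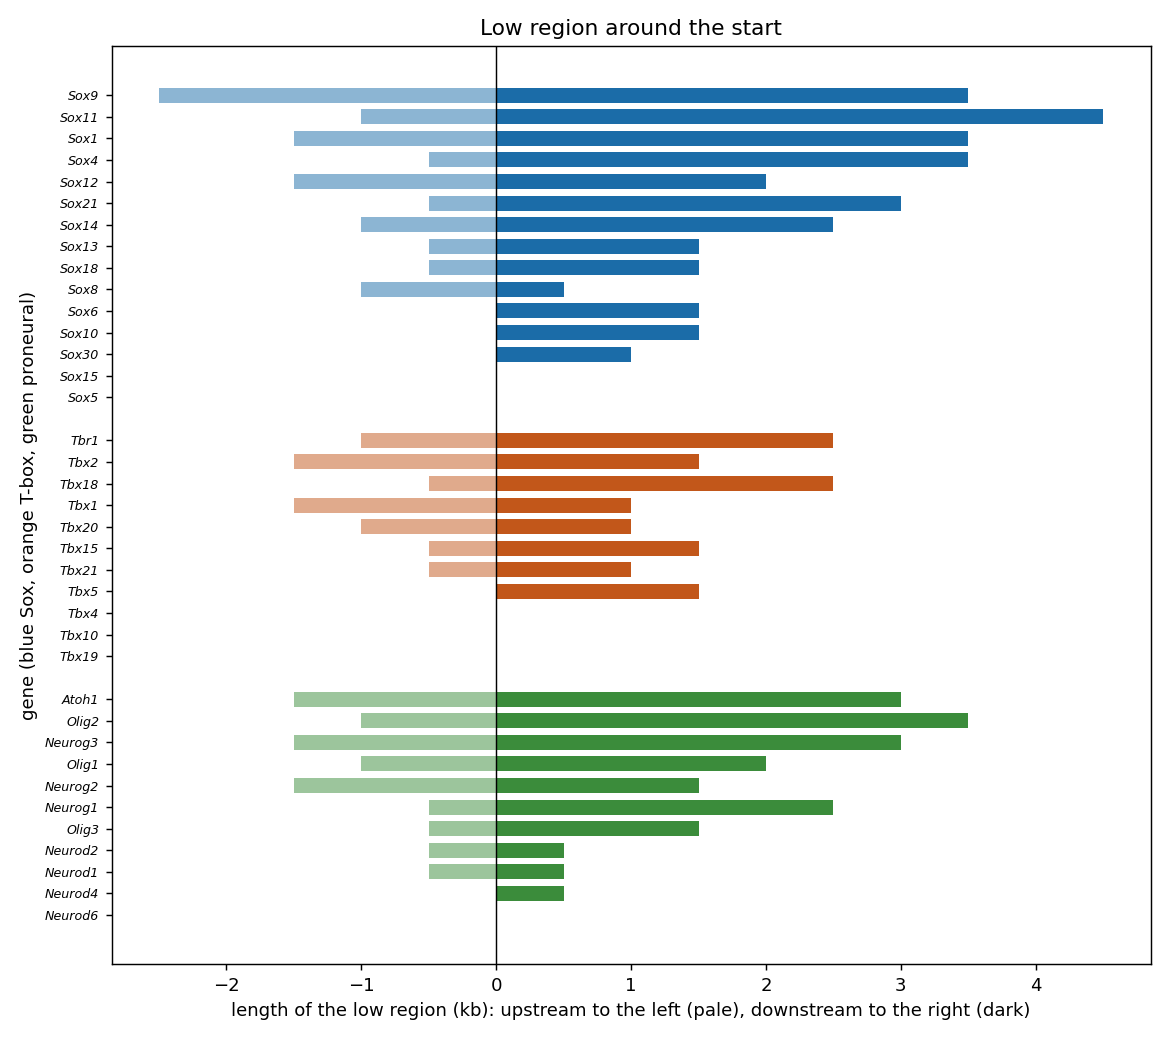
Length of the low region in kb for each gene, with the part upstream of the start to the left (pale) and the part downstream to the right (dark), ordered by length within family. Sox9, Sox11 and Sox1 have the longest bars (6000, 5500 and 5000 bp), and 6 genes have none.

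A single window at 20% or more ended several of these regions. The Neurod2 region stopped at 1000 bp because the window 500 to 1000 bp downstream was at 22.4%, while the next one was at 7.28%. On its downstream side, Tbx1 stopped at a window of 6 CpGs at 33.3%, and Tbr1 at a window at 20.7%. With 1 such window bridged, an alternative added after the data were seen, Neurod2 reached 7000 bp, Tbx1 6500 bp and Tbr1 6000 bp. Neurog2 and Olig2 each reached 9500 bp, and Sox1 reached 8000 bp. The family medians became 2000 bp for Sox, 3000 bp for T-box and 4000 bp for proneural genes, and the median over all genes stayed at 1000 bp.

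Low windows also occurred beyond the unbroken region. Of the 40 windows within 10 kb of a start, the members had a median of 10 low ones, compared with 2 over all genes and 4 over CpG-rich genes. At least 10 low windows were found around 19 of 37 members, where the background was 3.5% of all genes and 5.5% of CpG-rich genes. In the lists read below, 7 of 25 other family genes, 7 of 22 Notch pathway and Id genes and 0 of 29 differentiation genes had as many. Sox1 had the most, with 26 low windows of 39 measured. Neurod2 had 21 of 40, Olig2 20 of 39 and Neurog2 19 of 34. Sox14, Tbx1 and Tbx2 had 17 each. Other low promoters stood in methylated surroundings. Sox13, with the lowest promoter, had 5 low windows of 32, Sox8 had 5 of 37 and Tbx21 3 of 40. Sox5 and Tbx19 had no low window at all within 10 kb. In the stretch 5 to 10 kb downstream, the median was 30.2% for T-box, 57.7% for proneural and 59.7% for Sox genes, against 76.6% over all genes. At the same distance upstream the medians were 62.8%, 64.0% and 66.5%, against 73.4%. The downstream T-box median was the value of Tbx10 and describes few of the genes. The other T-box genes lay there either between 4.64% (Tbr1) and 19.6% (Tbx15) or between 67.1% (Tbx20) and 81.3% (Tbx19).

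**Figure D4:**
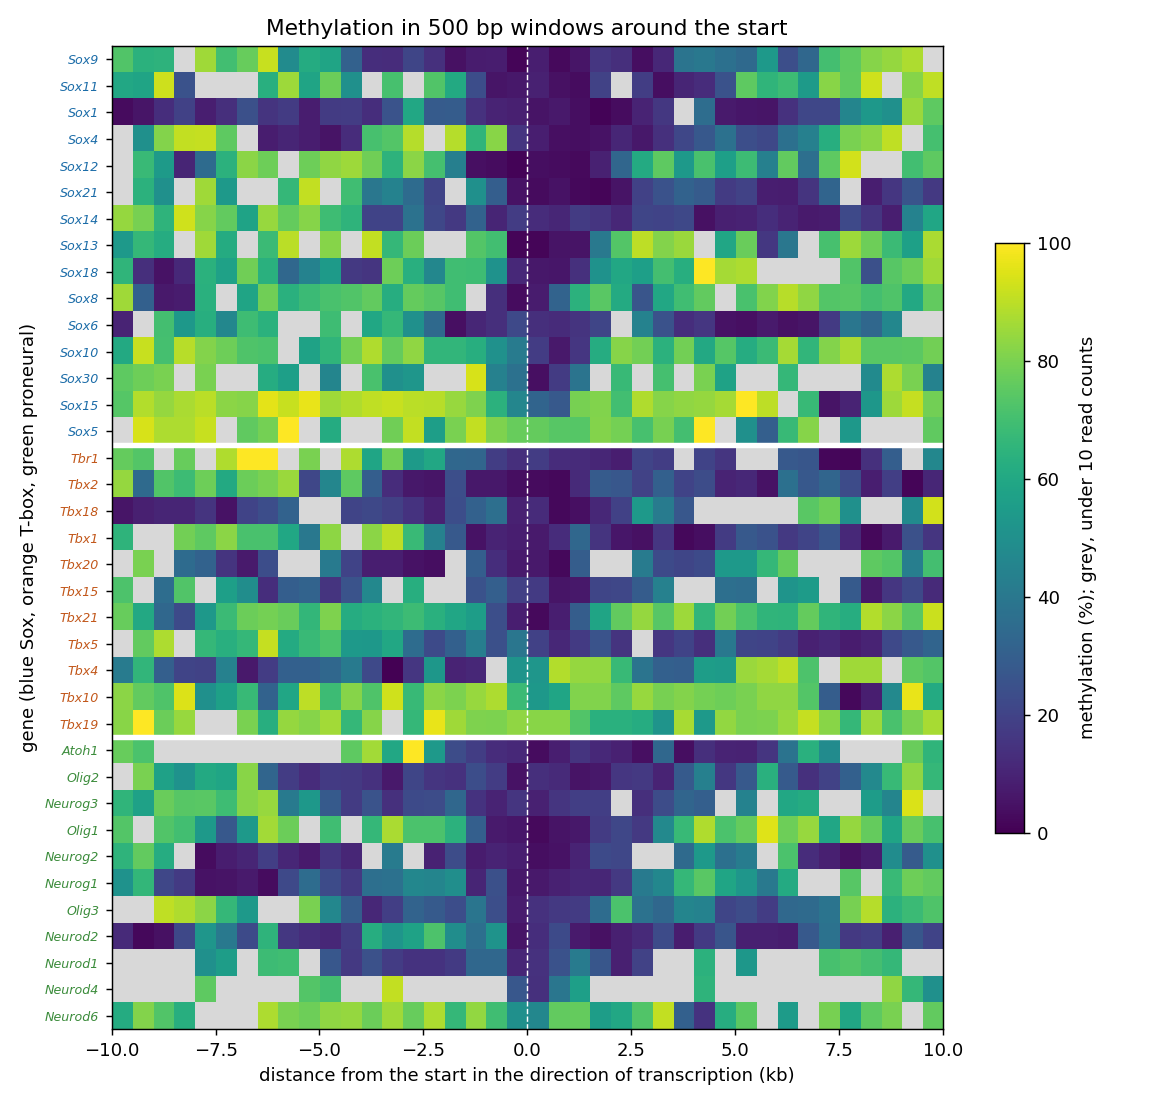
Methylation in 500 bp windows (color, 0% to 100%; grey, under 10 read counts) from 10 kb upstream to 10 kb downstream of the start, with genes as rows grouped by family and ordered by length of the low region. Dark bands run along most of the row at Sox1, Neurod2 and Olig2, are narrow at Sox13 and Tbx21, and are absent at Sox5 and Tbx19.

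Gene bodies, measured from 1000 bp inside each end, were far less methylated than those of other genes in many members. Of 33 members with a measured body, 13 were low (39.4%), against a background of 2.36% of all genes. Restricted to genes 2 to 10 kb long, 12 of 20 members were low, where the background was 8.04%. The medians were 7.71% for 9 proneural, 21.8% for 13 Sox and 45.8% for 11 T-box genes, compared with 75.4% over all genes. Sox1 was at 2.76% over its body (2.18% to 3.45%, 2719 read counts), Sox21 at 3.58% and Sox4 at 5.42%. Olig2 was at 6.10% and Neurog2 at 6.87%. Olig1 had 0 methylated of 60 read counts at the 6 CpGs of its short body, which allows up to 5.96%. The measured bodies of Atoh1, Olig3 and Sox14 also held only 6 CpGs each, with 83, 36 and 51 read counts. Of the 13 low bodies, 12 belonged to genes 2 to 10 kb long, the exception being Tbr1. Low bodies were not particular to the members. In the lists read below, 9 of 20 measured bodies of other family genes were low (45%). So were 5 of 19 of the Notch pathway and Id genes (26.3%) and 0 of 27 of the differentiation genes.

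With the low region left out of the gene, in place of the 1000 bp, the medians were 55.8% for 12 Sox genes and 33.8% for 6 proneural genes. The median was 48.3% for the 11 T-box genes. The Sox and proneural genes were not the same as before. Sox1, Sox14, Atoh1, Olig1 and Olig2, whose bodies ran from 0% to 13.7%, had no measured value outside the low region, while Sox15 gained a value. Low bodies then numbered 4 of 29 members, against a background of 0.774%. They were the T-box genes Tbx1 (8.51%, 7.83% to 9.22%, 6360 read counts), Tbr1 (7.62%, 6.67% to 8.66%) and Tbx2 (14.5%, 13.3% to 15.7%), and Neurod2 (9.34%, 8.32% to 10.4%). In these 4 genes, low levels thus extended beyond the unbroken region next to the start. None of the 12 measured Sox bodies was low outside the low region. At the far end of Tbx2, the 1 kb window held 55 CpGs at 1.31%.

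Other members combined a low promoter with a methylated body. Sox13 was at 61.4% over its body (60.3% to 62.6%), Tbx20 at 62.4% and Tbx21 at 65.6%. Sox8 was intermediate at 55.4%. The highest bodies were those of Tbx10 (79.8%), whose promoter was unresolved, and of Sox5 (79.7%) and Tbx19 (78.5%), whose promoters were high. Neurod6, also unresolved at the promoter, had a body at 60.4%. Those of the limb genes Tbx5 (44.6%) and Tbx4 (49.5%) and of Tbx15 (45.8%) were intermediate.

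**Figure D5:**
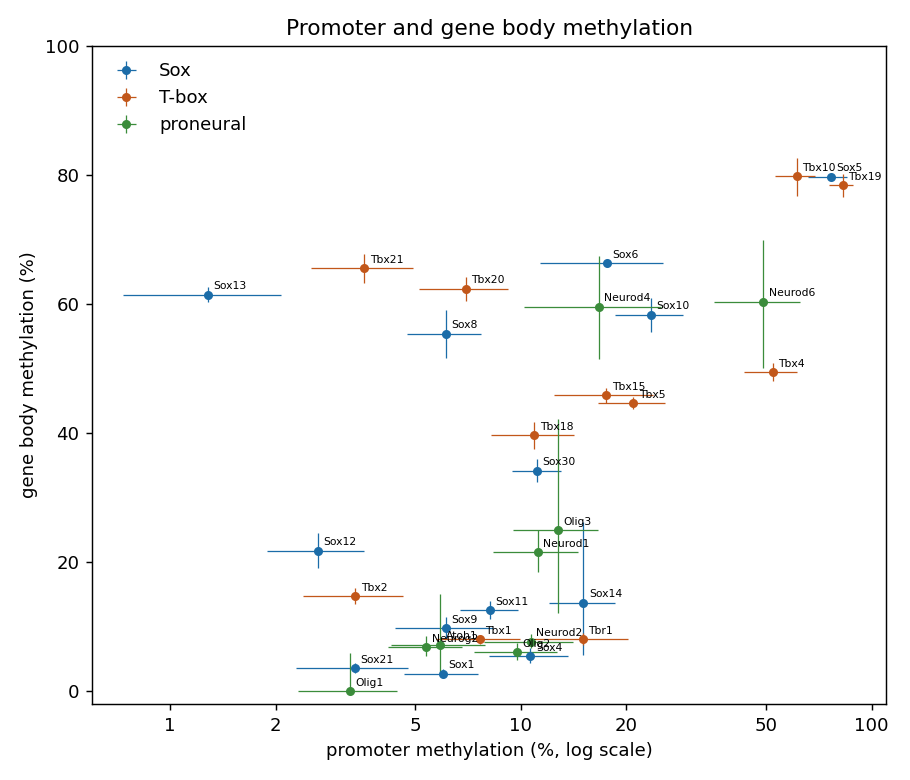
Promoter methylation (horizontal axis, percent, log scale) against gene body methylation (vertical axis, percent), 1 point per gene with a measured body and exact 95% counting intervals as bars. Low promoters occur with bodies from 0% (Olig1) to 65.6% (Tbx21), and Tbx10, Sox5 and Tbx19 lie at the top right.

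Members in 2 pairs lie within 100 kb of each other. The starts of Olig2 and Olig1 are 44219 bp apart on chromosome 16. The DNA between the genes was at 52.1% (50.3% to 53.8%), so the low regions of 4500 bp and 3000 bp did not join. Tbx2 and Tbx4 are neighbors on chromosome 11 with starts 64150 bp apart, and the DNA between them was at 49.9% (48.5% to 51.2%). The promoter windows of this second pair differed, with 3.38% at Tbx2 and 52.3% at Tbx4. Their starts were placed by different rules, at the gene end with more CpGs for Tbx2 and at a listed start inside the gene for Tbx4. The upstream end of Tbx4 was at 21.2%, and its window 1500 bp upstream of the listed start was at 10.5%.

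The remaining genes of the families were read in the same way, with no test against the members. The background for a low promoter was the 63.5% given above. Of the genes named here, Sox3, Sox7, Sox17, Tbx3 and Bhlhe22 were placed at the gene end with more CpGs, which favors CpG-rich windows. Of the other Sox genes, all 4 measured were low: Sox2 (3.40%), Sox7 (6.47%), Sox17 (8.37%) and the X-linked Sox3 (11.3%). All 4 windows were CpG-rich, where the background was 96.5%. Sox2, a core pluripotency factor active in the epiblast, had a low region of 7500 bp, longer than that of any of the 15 Sox members. Sry was not analysed here. Of 6 other T-box genes, 4 were low. Mga was at 6.09% and Brachyury (T), active in the primitive streak, at 9.95%. Tbx6 was intermediate at 33.9%, and the X-linked Tbx22 unresolved at 55.3%. Tbx3 was low at 10.1% with a low region of 7000 bp, while its neighbor Tbx5 had 1500 bp. Among 15 other proneural or related genes, 7 were low, 1 was intermediate, 1 high and 6 unresolved. Atoh8 (2.72%) and Bhlhe22 (5.64%) were lowest, and Ascl3 (83.1%) and Nhlh1 (47.3%) highest.

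Genes around and after these factors were read from fixed lists. Of those named below, Hes3, Col2a1 and Mbp had no listed start and were placed at the gene end with more CpGs. The first list held genes of the Notch pathway, which restrains proneural factors, together with Id1, Id2, Id3 and Id4. In it 20 of 22 promoters were low and 2 were intermediate. CpG-rich windows numbered 18 of the 22, and all 18 were low, against a background of 96.5% for such genes. The Notch effector Rbpj (2.37%) and the receptor gene Notch2 (2.46%) were lowest, and Hes3 (42.5%) and Notch4 (36.0%) highest. Of 29 differentiation genes of cartilage, glia, neurons, heart, pituitary and T cells, 10 promoters were low and 7 high. A further 4 were intermediate and 8 unresolved, and the list's median was 39.9%. The 63.5% of all genes that are low lie between these lists. Only 11 of the 29 had CpG-rich windows, 9 of which were low. The median body of the 27 measured differentiation genes was 70.9%, and 0 of them were low. By tissue, neuronal genes were low in 5 of 8, with Elavl4 at 1.83% and Map2 at 6.11% lowest and the X-linked Dcx (66.7%) and Syp (21.3%) highest. Cartilage genes, which Sox9 activates, were low in 3 of 6. Col2a1 (7.16%) and Acan (11.2%) were lowest and Col9a1 (73.7%) and Matn1 (67.0%) highest. Among glial genes, Mbp was low at 7.68% and Mog was highest at 76.3%. No heart gene of 6 was low, from Gja5 (31.8%) and Tnnt2 (50%) to Myh6 (70.2%) and Myl2 (84.0%). None of the pituitary and T cell genes was low: Pomc, a target of Tbx19, was at 39.9%, the X-linked Cxcr3 at 74.8%, and Ifng, a target of Tbx21, at 83.1%.

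Genes known to mark the embryonic lineage were read beside the label. Utf1 (2.88%) and Sox2 were low, and Pou5f1 was unresolved at 18.0% (14.2% to 22.2%). Elf5, which is methylated in the embryo proper and not in trophoblast, was at 83.8% (75.8% to 89.9%). Such levels are common for windows of this kind, so they say little about the label. Utf1 (70 CpGs) and Sox2 (84 CpGs) are CpG-rich, and 96.5% of CpG-rich genes were low. Elf5 has 11 CpGs, and genes under 40 CpGs had a median of 65.7%. Methylation does not measure expression, and none of the levels above says whether a gene was transcribed. Over the autosomes and the X, 137430444 read counts covered 89.2% of CpGs, with a median of 6 reads per CpG. Member promoters had a median of 10.8 read counts per CpG, compared with 10.6 over all genes.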

How the data were processed

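Whole-genome bisulfite sequencing of 2 samples of 1 group was deposited as 1 table. Its values are counts of methylated and unmethylated reads for each strand of each CpG, as deposited by the authors, without normalization. The submitters' processing notes name mm10, cutadapt 1.3, Bismark 0.12.5 and Bowtie2 2.1.0. Whether and how the samples were combined, and whether duplicate reads were removed is not given in the sources used here. Counts from duplicate reads would narrow the intervals.

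Both strands were added, and 137691322 read counts were present in all. Starts came from the RefSeq promoter table (GRCm38.p6), taking the most upstream listed one, for 30 members. For Sox9, Sox10, Sox18, Tbx2, Tbx5, Tbx15 and Olig1, and for 4354 of all genes, the end of the gene with more CpGs was used, which need not be the start. CpG positions in the RefSeq sequences equalled those of the table in 30 of 30 members. A promoter needed 5 CpGs with a read and 20 read counts. A 500 bp window needed 10 read counts; up to 2 unmeasured windows in a row were bridged, and the search reached 50 kb on each side. The functions were tested on simulated low regions with levels well below 20% in evenly methylated surroundings. That test does not cover regions with windows near 20%. Computation used Python 3.11.15, numpy 2.4.6, pandas 2.3.3 and scipy 1.17.1.

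All members were named. Full values were given by rule for the highest and lowest promoters, the longest and shortest low regions, members not called low and members near each other; from other lists the 2 highest and 2 lowest were named. Some list genes are not reported here. Sox2, T, Tbx3 and the genes outside that rule, as well as the lengths of 3 and 5 kb and the count of 10 windows, were chosen after values were seen. The members and lists were chosen with earlier results of these data known. Alternatives were other windows, minimums, summaries, strands, starts and thresholds.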

Additional observations from a re-analysis of the deposited data

How the results depend on the processing

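Replicates could not be left out, and no paired analysis was possible because the group has 1 table with no column per sample. For promoters, 34 of 40 alternative values of the family medians and of the count of low members stayed within the counting interval or within 1.5 times. For a median, this was the interval of the gene nearest to it, which depends on that gene's read counts. For T-box genes it was 10.7% to 20.2% (Tbr1) at promoters and 44.7% to 47.0% (Tbx15) at bodies. Steadiness therefore cannot be ranked between promoters, gene bodies and low regions. With low defined as under 10%, 16 of 37 members were low; otherwise the count ran from 21 of 30 members with a listed start to 30 of 36. As a mean of CpG fractions the Sox promoter median was 10.2%, and with plus strand reads alone the proneural one was 7.12%. At the most CpG-dense window the medians were 6.39% (Sox), 4.06% (T-box) and 6.71% (proneural). For Sox, T-box and proneural low regions, the medians were 1000, 0 and 500 bp with windows under 10%, and 3500, 3000 and 4000 bp under 30%. Windows of 1000 bp gave 4000 bp for Sox and for proneural genes. The Sox median was 3500 bp at the gene end with more CpGs, and the proneural one was 1500 bp with plus strand reads alone. Bridging 1 window gave 3000 bp (T-box) and 4000 bp (proneural). The Sox gene body median and the T-box gene body median were 32.5% and 48.2% with 2000 bp left out, 25.5% and 49.8% as mean fractions, 27.4% and 48.0% on the plus strand, and 55.8% and 48.3% outside the low region. The proneural gene body median was 32.2% with 2000 bp left out (2 genes) and 33.8% outside the low region. Except the counts of 21 and 30, each alternative value given here moved by more than that counting interval, 1 window or 1.5 times. Apart from the changed definitions, the cause was not tested. Depth limits the CpG-poor promoters: Neurod6 and Sox5 fell under a minimum of 100 read counts.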

Other observations

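The place of the most CpG-dense window was bounded by gene length, with median lengths of 22940 bp for T-box, 4794 bp for Sox and 2904 bp for proneural genes. The most CpG-dense 1 kb window was over 5 kb downstream of the start in 5 of 11 T-box genes, 2 of 15 Sox genes and 0 of 11 proneural genes, and in 15.8% of all genes. Among genes at least 6 kb long, a limit set after the data were seen, it was 5 of 11 T-box, 2 of 6 Sox and 0 of 1 proneural genes, and 21.1% of all genes. At Tbx1 it lay 8392 bp downstream, near the far end of the gene, with 137 CpGs at 4.06% (3.22% to 5.06%). In Sox6 the densest window, 220472 bp downstream, held 73 CpGs without a single read, so its methylation is unknown.

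Counting intervals of the plus and minus strands did not overlap at 5 of 37 promoters, where the background was 12.7% of all measured genes and 18.7% of CpG-rich ones. The members were thus near the background. Tbx1 was at 3.54% on the plus strand and 11.2% on the minus strand, Sox9 at 2.52% and 8.38%, Neurog2 at 3.27% and 7.09%, and Sox11 at 6.11% and 10.7%. Sox30 went the other way, at 13.2% and 8.10%. All 5 were low on either strand.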
